A study of Mus musculus with 4 samples.

Results

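Epcam, the Kunitz inhibitor genes Spint1 and Spint2 and the genes of related serine proteases were examined in mouse ovarian cancer cells kept in suspension. The 7 genes were taken by name from a deposited table of 23875 genes: Spint1, Spint2, St14, Prss8, Prss23, Hgfac and Epcam. They had been selected on the names, with the fold change between the cell lines already known from an earlier analysis of the same table, and that fold change is not analysed here. RNA was sequenced from 2 libraries of ID8-PW2 cells, a line grown from tumors of the peritoneal wall after 2 passages through C57BL/6 mice, and 2 libraries of ID8-P0 cells, the line before any such passage. Both came from in vitro transformed ovarian surface epithelial cells of C57BL/6 mice (labelled wild type), the starting line carried GFP and luciferase, and each had spent 24 h in suspension on coated plates. The duplicates were separate cell samples of the same 2 lines, so separately passaged tumors were not sampled.

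The table pairs each gene with 1 mean level for all 4 libraries, given as log2 CPM (CPM being the reads of a gene scaled to a fixed library total). It also holds 4 columns of counts, but their names match no label, so none could be given to a line. Every level below is therefore read as the authors' mean over ID8-PW2 and ID8-P0 together, with no value per library and no standard deviation. Which libraries entered this mean is not stated, and it is taken here to cover all 4. A gene that is abundant in 1 line and absent from the other cannot be told apart from a gene at the same middling level in both, and the depth of the libraries is not given here. The table gives a biological coefficient of variation (BCV, the square root of the edgeR dispersion) for each gene, which is printed as the only measure of spread. In an edgeR comparison of groups, it describes variation between replicates beyond counting noise. It does not cover a difference between the lines, so it is not the error of the pooled mean.

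Matriptase, encoded by St14, is a serine protease that spans the membrane of epithelial cells, and prostasin, encoded by Prss8, is a membrane-anchored protease that acts with it. HAI-1 and HAI-2, encoded by Spint1 and Spint2, are membrane proteins with Kunitz domains that block both proteases. EpCAM is an adhesion molecule of epithelia that matriptase can cut, and loss of HAI-2 or of EpCAM causes congenital gut disease in humans. The HGF activator, encoded by Hgfac, is a secreted protease that turns the precursor of hepatocyte growth factor into the ligand of the receptor Met, and it is also held back by HAI-1 and HAI-2. Prss23 encodes a secreted serine protease that is less well studied.

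The 250 bases before the RefSeq start of Spint2, Spint1 and Epcam are shown because these 3 are the inhibitors and the surface protein around which the other genes are grouped. They come from RefSeq on GRCm38.p6 and are written on the strand of the gene. Capitals mark the E-box CACCTG, a motif bound by ZEB and SNAIL repressors of epithelial genes, and the GC-box GGGCGG, each searched on both strands (CAGGTG and CCGCCC on the other).
Spint2, chr7:29281978-29282227, - strand: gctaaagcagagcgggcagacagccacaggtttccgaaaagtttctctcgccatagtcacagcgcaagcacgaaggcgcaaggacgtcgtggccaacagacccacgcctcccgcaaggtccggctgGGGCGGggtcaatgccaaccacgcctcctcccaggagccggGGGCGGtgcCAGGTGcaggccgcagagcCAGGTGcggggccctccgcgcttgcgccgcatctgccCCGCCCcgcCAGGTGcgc
Spint1, chr2:119237110-119237359, + strand: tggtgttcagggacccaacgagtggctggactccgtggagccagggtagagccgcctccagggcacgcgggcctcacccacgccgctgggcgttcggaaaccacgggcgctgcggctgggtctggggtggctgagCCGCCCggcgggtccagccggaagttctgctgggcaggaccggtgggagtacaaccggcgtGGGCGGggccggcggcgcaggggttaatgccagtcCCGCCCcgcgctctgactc
Epcam, chr17:87635729-87635978, + strand: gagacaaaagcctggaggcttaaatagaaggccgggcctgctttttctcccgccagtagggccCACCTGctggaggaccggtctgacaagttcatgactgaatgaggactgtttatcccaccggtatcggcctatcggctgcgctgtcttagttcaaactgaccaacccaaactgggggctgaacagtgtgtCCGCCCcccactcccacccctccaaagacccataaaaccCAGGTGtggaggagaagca

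The 250 bases before Spint2 held 3 E-boxes, starting at positions -74, -55 and -9 from the start, with 3 GC-boxes at -124, -83 and -18. Of 32851 RefSeq promoters of the same length, 17.2% held at least 1 E-box, 2.06% at least 2 and 0.247% at least 3. The Epcam promoter held 2 E-boxes, at -187 and -19, and 1 GC-box at -58, while the Spint1 promoter held 0 E-boxes and 3 GC-boxes. A GC-box was present in 32.7% of promoters. The exact GRHL motif AACCGGTT, which occurred in 0.116% of promoters, and TATAAA, in 12.4%, were in none of the 3. Shorter or inexact forms of the GRHL motif were not searched. GC content was 69.6% for Spint2, 72.8% for Spint1 and 56.4% for Epcam, beside a median of 52.4% over all promoters. These matches describe the letters only, and binding was not measured. The start of Spint2 in RefSeq falls at the end of the gene in the table, 29281977 on chromosome 7, and that of Epcam at its start in the table, 87635979 on chromosome 17.

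The inhibitors lay near the middle of the table. Spint2 (ENSMUSG00000074227, chromosome 7 from 29256331 to 29281977) had a mean of 5.81 CPM (log2 CPM 2.54, BCV 17.8%), above 60.7% of all genes listed. Spint1 (ENSMUSG00000027315, chromosome 2 from 119237362 to 119249527) had 2.64 CPM (log2 CPM 1.40, BCV 23.7%), above 54.6% of genes. The median of the 20674 protein-coding genes listed was 2.89 CPM, so Spint2 stood above it and Spint1 just under it. Both were above the threshold of 1 CPM that is used here to count a gene as clearly present, a level that 51.2% of all genes and 56.5% of protein-coding genes reached.

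The membrane proteases that these inhibitors restrain were both under 1 CPM. St14 (ENSMUSG00000031995, chromosome 9 from 31089402 to 31131853) stood at the lowest level listed, 0.163 CPM (log2 CPM -2.62), which it shared with 4561 genes in all, or 19.1% of the table. edgeR adds a small count to every gene, and the shared value is read here as that added count. The counts themselves were not examined, and no level of its own can be read for St14. Its neighbour on the same strand, Aplp2, which lies 17703 bases away, had 804 CPM. Prss8 (ENSMUSG00000030800, chromosome 7 from 127925725 to 127930113) had 0.267 CPM (log2 CPM -1.91), or 0.104 CPM over the lowest level, above 36.6% of genes, with a BCV of 73.6%. That BCV is the highest in the table and was given to 3638 genes. In GENCODE release M21 the gene overlaps Kat8 on the opposite strand, which had 7.22 CPM. The library kept the strand, but whether the counting used it is not given in the sources used here, so reads of the 2 genes may be mixed.

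The secreted proteases were above the membrane-bound ones. Prss23 (ENSMUSG00000039405, chromosome 7 from 89507785 to 89517586) was the most abundant of the 7, with 20.6 CPM (log2 CPM 4.36, BCV 8.72%), above 76.1% of genes. It overlaps the antisense gene Prss23os, with the same limit. Hgfac (ENSMUSG00000029102, chromosome 5 from 35041553 to 35048436) had 1.55 CPM (log2 CPM 0.63, BCV 21.2%), above 51.4% of genes. Epcam (ENSMUSG00000045394, chromosome 17 from 87635979 to 87651106) had 4.12 CPM (log2 CPM 2.04, BCV 19.7%), above 57.7% of genes. In all, 5 of the 7 genes reached 1 CPM, and 1 stood at the lowest level.

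**Figure D1:**
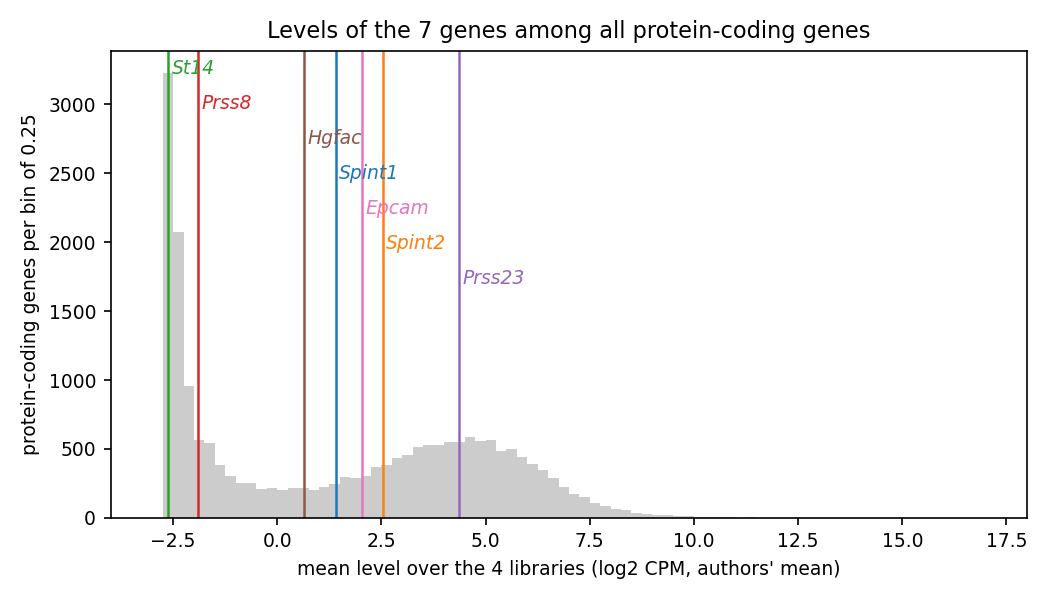
Histogram of the mean level over the 4 libraries (x axis, log2 CPM, the authors' mean) for the 20674 protein-coding genes listed (y axis, genes per bin), with a vertical line for each of the 7 genes. St14 sits in the bar at the lowest level and Prss8 just above it, Hgfac, Spint1, Epcam and Spint2 lie between 0.63 and 2.54, and Prss23 stands at 4.36.

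Because a longer transcript gives more reads, levels were set against each other per kilobase of exon, from the union of exons in GENCODE release M21. Prss23 came first with 5.46 CPM per kilobase, followed by Epcam with 1.88, Spint2 with 1.27, Spint1 with 0.956, Hgfac with 0.455 and Prss8 with 0.144. St14, whose CPM is the lowest level shared by many genes, came last. The step from Epcam to Spint2 was a ratio of 1.47 per kilobase, and that from Spint2 to Spint1 was 1.33. With the longest transcript as length the same steps were 1.13 and 1.57, so the distance between these 3 neighbours depends on the gene model. Whether they differ beyond their spread was not tested. The other steps were larger under both lengths: 2.91 and 3.15 for Prss23 over Epcam, 2.10 and 1.82 for Spint1 over Hgfac, and 3.16 and 4.36 for Hgfac over Prss8. The last of these steps includes the lowest level of the table, which is the larger part of the level of Prss8. With that lowest level subtracted, Hgfac had 0.407 and Prss8 0.0560 CPM per kilobase. Before division by length, Spint2 stood above Epcam.

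**Figure D2:**
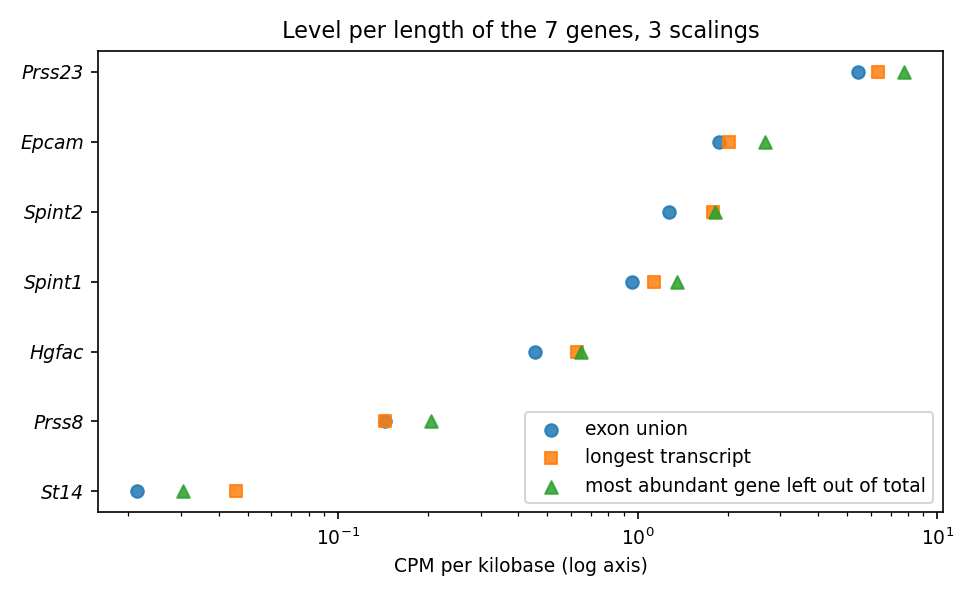
Level per length of the 7 genes (x axis, CPM per kilobase on a log axis; one row per gene) from the exon union (circles), the longest transcript (squares) and with the most abundant gene left out of the total (triangles). The order of the rows is the same for the exon union and the longest transcript. It runs from Prss23 at 5.46 by exon union down to St14, whose CPM is the lowest level of the table. The triangles scale every circle by the same factor, so their order cannot differ.

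Other membrane-anchored serine proteases were low as well. This list holds 25 genes, among them the hepsin, TMPRSS, corin and testisin genes, and 0 of the 25 reached 1 CPM at a median of 0.204 CPM, while 56.5% of protein-coding genes did. The lowest level was shared by 6 of them. The highest were Prss21, which encodes testisin, with 0.907 CPM and 0.408 CPM per kilobase, and Prss30 with 0.523 CPM and 0.215 CPM per kilobase. Hpn, which encodes hepsin, a protease that can also activate HGF, had 0.243 CPM.

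Other genes with a Kunitz domain differed widely in level. Of the 15 other Kunitz-domain genes found in the table, 6 reached 1 CPM (40%, beside 56.5% of protein-coding genes) and 4 stood at the lowest level. Aplp2, a relative of the amyloid precursor protein, had 804 CPM (136.9 CPM per kilobase), and App, the amyloid precursor protein itself, had 477 CPM (36.7 CPM per kilobase). Only some transcripts of these 2 genes carry the Kunitz exon, and the table does not separate them. Papln, which encodes papilin, had 1.59 CPM per kilobase, beside 1.27 for Spint2. Tfpi, the inhibitor of tissue factor, had 0.422 CPM per kilobase.

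Receptors for HGF and for the related ligand MSP were among the more abundant genes, while the ligand genes were lower. Met, the HGF receptor, had 75.9 CPM (9.89 CPM per kilobase, above 86.5% of genes per kilobase), and Mst1r, the MSP receptor, had 36.9 CPM (7.37 CPM per kilobase). Hgf had 0.183 CPM, just above the lowest level, and Mst1, which encodes MSP, had 1.21 CPM. Plat, a plasminogen activator, had 45.0 CPM and 7.22 CPM per kilobase, and Plau, the urokinase gene, had 0.837 CPM and 0.353 CPM per kilobase. Of the 15 genes in the list, 8 reached 1 CPM (53.3%, beside 56.5% of protein-coding genes), at a median of 1.17 CPM.

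Genes listed as substrates of the membrane proteases were present in part. Of the 9 found in the table, 3 reached 1 CPM (33.3%, beside 56.5% of protein-coding genes). Tmeff1 had 10.5 CPM (4.12 CPM per kilobase), and Scnn1a, the alpha subunit of the epithelial sodium channel that prostasin activates, had 7.12 CPM (1.72 CPM per kilobase). F2rl1, the receptor PAR2 that matriptase can activate, had 0.476 CPM.

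The partners and cleaving enzymes of EpCAM were well represented, except its claudins. Of 16 genes, 12 reached 1 CPM (75%, beside 56.5% of protein-coding genes), with a median of 21.2 CPM. Ctnnb1, which encodes beta-catenin, had 641 CPM (123 CPM per kilobase) and Tspan8, a tetraspanin found with EpCAM, 277 CPM (163 CPM per kilobase). Cldn7, the claudin bound by EpCAM, had 0.287 CPM, and Cldn1 stood at the lowest level. Per kilobase, Cldn7 had 0.147, beside 1.88 for Epcam.

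Keratins of simple epithelia differed in level. Of 14 epithelial and ovarian surface markers, 12 reached 1 CPM (85.7%, beside 56.5% of protein-coding genes). Krt19 had 938 CPM (506 CPM per kilobase), Krt18 had 501 CPM (349 CPM per kilobase) and Krt8 had 435 CPM (222 CPM per kilobase). Krt7 was lower, with 1.91 CPM (0.270 CPM per kilobase). Of the tight junction genes in the list, Cldn3 had 7.48 CPM (5.94 CPM per kilobase) and Cldn4 had 0.556 CPM. Ocln stood at the lowest level. Cdh1, which encodes E-cadherin, had 4.72 CPM and 1.03 CPM per kilobase, near Spint1 at 0.956. Among 12 regulators of epithelial genes, 7 reached 1 CPM (58.3%), close to the share of protein-coding genes. Klf4 was the highest with 66.4 CPM (21.8 CPM per kilobase), followed by Esrp2, a splicing regulator, with 23.3 CPM (5.36 CPM per kilobase). Grhl2, which in mice controls epithelial genes such as Cdh1, had 0.908 CPM.

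Markers of other cell types were examined in the same table, where 56.5% of protein-coding genes reached 1 CPM. Of the immune markers, 2 of 8 reached 1 CPM, led by Cd68 with 13.0 CPM and Csf1r with 1.88 CPM. Ptprc, the pan-leukocyte marker, had 0.224 CPM and Lyz2 stood at the lowest level. Of the endothelial markers, 2 of 5 reached 1 CPM, Pecam1 with 4.62 CPM and Vwf with 2.81 CPM, while Cdh5 had 0.183 CPM. Of the fibroblast markers, 4 of 6 did so, with Dcn at 320 CPM and Pdgfra at 8.39 CPM. Lum, another fibroblast marker, stood at the lowest level. Of 4 adipocyte markers 0 reached 1 CPM, the highest being Cidec with 0.349 CPM and Fabp4 with 0.225 CPM, and both erythroid markers found, Hbb-bs and Alas2, stood at the lowest level. The part of other cells in the levels of the 7 genes was not tested.

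**Figure D3:**
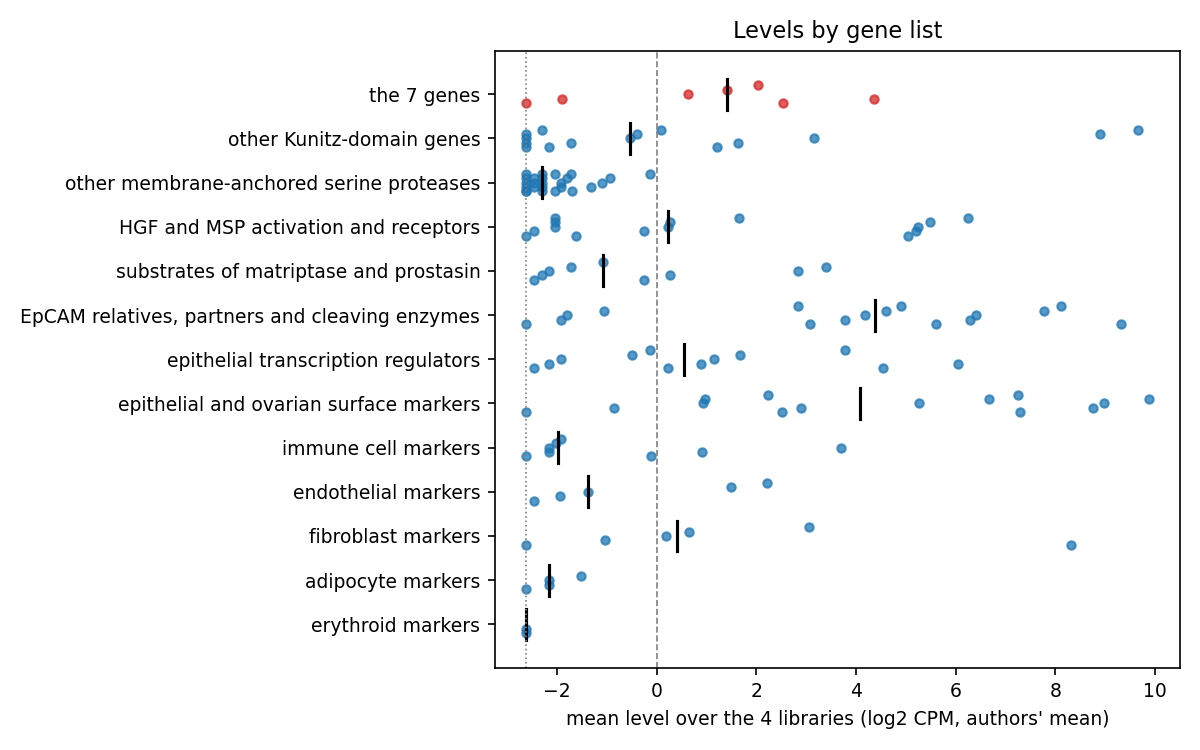
Mean level over the 4 libraries (x axis, log2 CPM, the authors' mean) of each gene found in the table, by list (rows), with a black bar at the median of each list, a dashed line at 1 CPM and a dotted line at the lowest level of the table. The membrane-anchored proteases all lie left of the dashed line, while 12 of 16 genes around EpCAM and 12 of 14 epithelial and ovarian surface markers lie right of it.

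The spread that the authors' dispersion gives was above the upper quartile of genes at the same level for Spint1, Spint2, Epcam and Prss8. A fixed share of genes lies above such a quartile by definition. St14, at the lowest level, was not compared in this way. Protein-coding genes within 0.5 log2 units of Spint1 had a median BCV of 18.2%, against 23.7% for Spint1, which was above 85.0% of these 1031 genes. Spint2, at 17.8%, was above 82.2% of the 1493 genes around it, whose median was 14.6%, and Epcam, at 19.7%, was above 81.7% of 1261 genes with a median of 16.3%. Prss8, at the table's highest value of 73.6%, was above 75.1% of 2966 genes with a median of 54.9%. The upper quartile around Prss8 was also 73.6% when rounded, and 3638 genes of the table share the highest value. Prss23 (8.72%, beside a median of 9.11%) and Hgfac (21.2%, beside 21.4%) were near the middle of their surroundings. The dispersion should be read with care. The 4561 genes at the lowest level carried 695 different dispersions, with BCVs between 1.15% and 73.6%, and St14 had 38.7%, so these values were not set by the mean level in this table alone. Which libraries entered the dispersion is not stated.

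**Figure D4:**
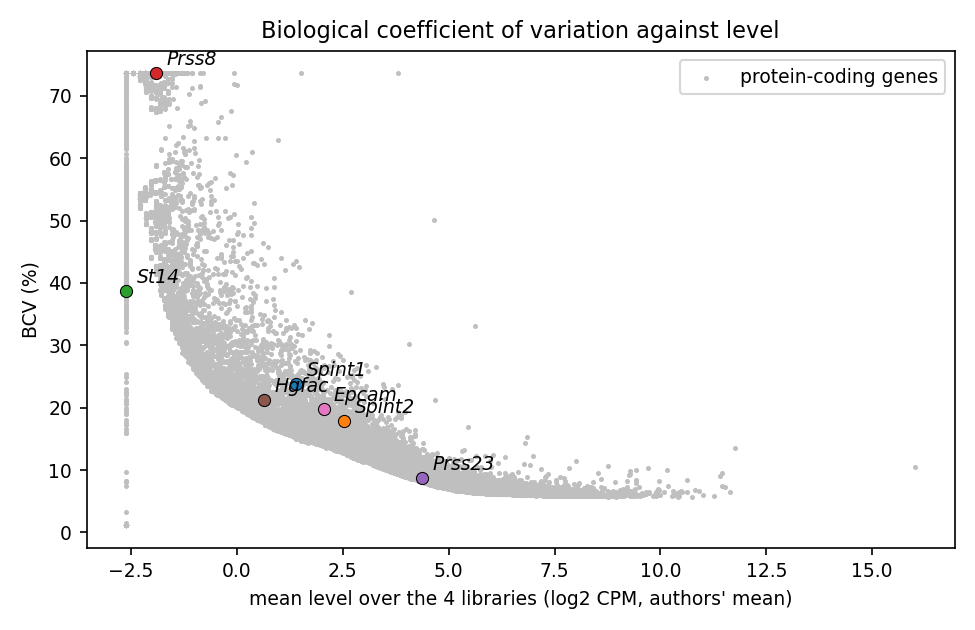
BCV (y axis, percent) against the mean level over the 4 libraries (x axis, log2 CPM, the authors' mean) for protein-coding genes (grey) and the 7 genes (coloured). Spint1, Spint2 and Epcam lie in the upper part of the band at their level, Prss23 and Hgfac in its middle, and the column of points at the left holds the genes at the lowest level, St14 among them.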

How the data were processed

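RNA of duplicate ID8-PW2 and ID8-P0 samples was sequenced after DSN treatment to reduce ribosomal RNA. The submitters' notes list CASAVA 1.8.2, Trimmomatic 0.22, TopHat2 2.0.6, Bowtie2 2.0.2 and edgeR 3.20.8. Per the study's methods, up to 100 hits per read and 2 mismatches were allowed, and custom scripts summed reads by gene. The notes name hg19, while positions and identifiers are mouse: 23399 of the 23875 identifiers are in GENCODE M21 (GRCm38), of which 18946 share a boundary with it. The mouse build is not given in the sources used here.

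The log2 CPM column, as deposited by the authors, is the edgeR mean level over the libraries with a small count added. The dispersion, a score per gene, was deposited by the authors too. The other columns hold the authors' comparison of the 2 lines (fold change, its log2, p-value, FDR and call) and were not used. The table has 4 columns of counts whose names match no label; they were left unused, so the comparison of the lines, values per library and depth are not given here. Genes were counted as present at 1 CPM. Lengths came from GENCODE exons. From each of 12 lists the 2 genes with the highest level are named, and all others named were chosen after their values were seen. Other members of the lists are given as counts, and some are not reported here. The genes and lists were chosen with earlier results of these data known. For the same reason, genes most like Spint2 and Epcam across libraries were not sought. Promoters came from RefSeq, which matched 5 of the 7 genes. Steps were tested on simulated data in Python 3.11.15 with numpy 2.4.6, pandas 2.3.3 and matplotlib 3.10.9.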

Additional observations from a re-analysis of the deposited data

How the results depend on the processing

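The order of the 7 genes per kilobase was the same with the longest transcript as length and with the lowest level subtracted. Leaving the most abundant gene out of the total scales every gene alike, so it cannot change the order. With the longest transcript as length, levels in CPM per kilobase were 6.37 for Prss23, 1.79 for Spint2, 0.627 for Hgfac and 0.0459 for St14, and the other 3 moved by less than their BCV. Gm26924, the most abundant gene, held 29.7% of the summed CPM. Without it in the total, a choice made after seeing the data, the levels were 1.42 times higher: 7.77 for Prss23, 2.67 for Epcam, 1.81 for Spint2, 1.36 for Spint1, 0.648 for Hgfac and 0.0303 for St14. With the lowest level subtracted, also chosen after seeing the data, St14 was at 0 and Prss8 fell to 0.0560, within its BCV only because that is 73.6%, and the other 5 moved by less than theirs. At 0.5 CPM in place of 1 CPM, 2 of the 25 other membrane-anchored proteases counted as present, and at 2 CPM the immune markers gave 1 and the fibroblast markers 2. The counts at 1 CPM were not repeated without Gm26924 in the total. On that scale genes just under the threshold, such as Prss21 at 0.907 CPM and Grhl2 at 0.908 CPM, would pass it. Alternatives that need counts per library (other normalizations, tools, filters and thresholds, and leaving out replicates) were not run. No paired analysis was possible because the names of the columns of counts link none of them to a line or a duplicate. Low levels are limited by the shared lowest level of 0.163 CPM.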

Other observations

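Genes next to the 7 in the table differed widely in level. The genes on either side of Spint2, 2200002D01Rik and Ppp1r14a, both stood at the lowest level of the table, as did Ppp1r14d beside Spint1. Prss36, a relative of Prss8 that lies 2524 bases from it, had 1.42 CPM and 0.440 CPM per kilobase, beside 0.144 for Prss8. Fzd4, a Wnt receptor 97674 bases from Prss23, had 5.88 CPM per kilobase, beside 5.46 for Prss23. These are values of neighbours, and no relation between them was tested.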
